A study of Mus musculus with 2 samples.

Results

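Isolated midbrain p300 peaks are regions of the midbrain p300 list with no other listed peak in a wide stretch around them. A midbrain peak on chromosomes 1 to 19 was taken when no other midbrain peak and no heart peak had its midpoint within 200 kb of its own midpoint (mouse build mm9). The rule kept 556 of the 2759 midbrain peaks on these chromosomes, or 20.2% (95% Clopper-Pearson interval 18.7 to 21.7). The whole midbrain list holds 2786 peaks and the heart list 3597. The members were chosen by the positions of the listed peaks, which derive from the reads counted below, and the absence of heart peaks nearby is part of the choice. The values are therefore descriptions of these peaks and carry no test.

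The study mapped p300 by ChIP-seq (sequencing of DNA pulled down with an antibody to p300) in hearts and midbrains taken at embryonic day 11.5 from mice of the CD-1 strain, with no treatment or allele named in the labels. Each tissue is 1 library from pooled tissue of about 150 embryos of both sexes, so no difference between the tissues has a replicate check. The labels name the heart as tissue, while the dissection protocol they quote lists forebrain, midbrain and limb. The heart library holds 1303861 aligned reads and the midbrain library 5869671, or 4.50 times as many, so 1 read is worth 0.767 rpm (reads per 1000000 aligned reads) for the heart and 0.170 rpm for the midbrain. These data hold no expression values, and the dissected tissues were not checked against marker genes.

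p300 is a histone acetyltransferase that transcription factors recruit to enhancers, the DNA elements that raise transcription of genes on the same chromosome. It acetylates histones there, and its binding in an embryonic tissue is widely used to find enhancers that are active in that tissue. Enhancers of developmental genes often lie in groups around one gene, and others lie alone at a long distance from any other. The midbrain at this stage holds dividing neural progenitors and the first neurons.

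Most midbrain peaks have a listed neighbour much closer than 200 kb. Across the 2203 remaining midbrain peaks the median distance to the nearest listed peak of either tissue was 18.97 kb (quartiles 1.91 and 66.8 kb). Among the isolated peaks it was 386 kb (quartiles 274 and 640 kb), the shortest distance was 200.7 kb and the longest 4660 kb. The nearest listed peak was a midbrain peak for 292 of the isolated peaks and a heart peak for 264. A distance of over 500 kb separated 190 of them from every other listed peak, and 69 had over 1000 kb. Removing the heart peaks from the rule would have kept 967 midbrain peaks, so 411 peaks that stand alone among midbrain peaks lie within 200 kb of a heart peak. The mirrored rule kept 689 of 3576 heart peaks (19.3%, interval 17.99 to 20.6).

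**Figure D1:**
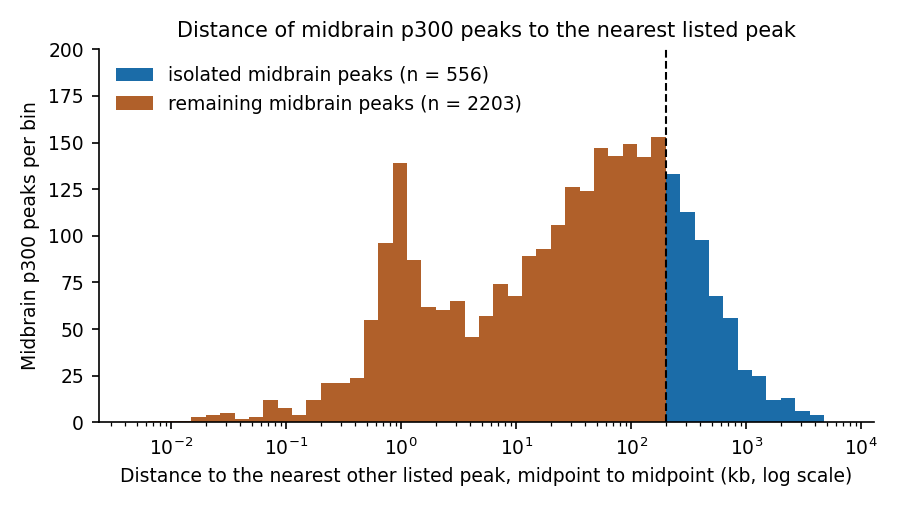
Number of midbrain p300 peaks on chromosomes 1 to 19 by the distance to the nearest other listed peak of either tissue (horizontal axis, kb, log scale, 8 bins between successive powers of 10). The dashed line marks 200 kb: the 556 isolated peaks lie to its right and the 2203 remaining peaks to its left, with no gap in the distances at the line.

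The distance of 200 kb cuts a continuous range of values. Just inside it lie the peaks chr2:106735435-106735986, chr2:5235625-5236333 and chr19:14197944-14199221 (mm9, counted from 1), with nearest peaks at 200.7, 201.5 and 201.6 kb. They held 15, 22 and 37 midbrain reads, with 0, 0 and 2 heart reads. Just outside it lie chr10:41398383-41399138, chr11:40414789-40415396 and chr5:72566751-72567532, with nearest peaks at 199.2, 199.02 and 198.97 kb. These held 15, 16 and 19 midbrain reads, with 2, 0 and 1 heart reads. The reads of the peaks on either side of the limit overlap.

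Every chromosome from 1 to 19 holds isolated peaks, between 13 on chromosome 19 and 52 on chromosome 3. On chromosome 3 they were 27.7% of the midbrain peaks (interval 21.4 to 34.6). The lowest share was on chromosome 13, where 24 of 221 midbrain peaks were isolated (10.9%, interval 7.08 to 15.7), followed by chromosome 9 with 19 of 148 (12.8%, interval 7.91 to 19.3). Chromosome 13 has the second highest number of midbrain peaks. Chromosome 2 has the most, 241, and also the most heart peaks, 296, with 16.6% of its midbrain peaks isolated (interval 12.1 to 21.9). The part of peak number or chromosome length in these shares was not tested.

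The isolated peaks are ordinary midbrain peaks in size. Their median width was 710 bp (interval of the median 687 to 746, quartiles 567.5 and 980 bp, range 279 to 2712), against 750 bp for the remaining peaks (interval 735 to 763). They held a median of 16 midbrain reads (quartiles 13 and 23, range 6 to 121), against 17 (quartiles 13 and 24, range 5 to 153). The mean was 19.6 midbrain reads per isolated peak (3.33 rpm) and 20.96 per remaining peak (3.57 rpm), a ratio of 0.934 (interval 0.914 to 0.953). Per base the peaks were as densely covered, with 24.1 and 24.5 midbrain reads per kb of peak, a ratio of 0.983 (interval 0.963 to 1.004). A small deficit remained with reads counted within 500 bp of the midpoint, whatever the width, at a ratio of 0.953 (interval 0.933 to 0.973). These intervals, and those that follow, are exact 95% intervals that cover counting error only.

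The deposited list ranks its peaks with 1 as the best, which places the isolated peaks slightly lower in the list. Their median rank was 1511.5 against 1363 for the remaining peaks. Isolated peaks were 17.3% of the peaks of rank 1 to 500 (86 peaks, interval 14.1 to 20.9) and 16.9% of those beyond rank 500 up to 1000 (83 peaks, interval 13.7 to 20.5). They were 21.8% beyond rank 1000 up to 2000 (216 peaks, interval 19.3 to 24.5) and 22.0% beyond rank 2000 (171 peaks, interval 19.1 to 25.03). The intervals of these shares overlap.

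Within a class of rank, isolated and remaining peaks differed in midbrain reads by less than the counting error. Rank follows midbrain reads closely, so reads alike within a class follow in part from how the classes were made. The ratio of midbrain reads per peak was 0.977 for rank 1 to 500 (interval 0.942 to 1.014), 1.015 in the class up to rank 1000, 0.976 up to rank 2000 and 1.0096 beyond rank 2000, and each interval includes 1. Median widths of isolated and remaining peaks were 1254.5 and 1262 bp in the first class, 996 and 950 bp in the next, 685.5 and 718 bp up to rank 2000 and 561 and 545.5 bp beyond it. Isolated peaks were thus the narrower ones in 2 of the 4 classes, and the intervals of the medians overlap in each. Among the isolated peaks the Spearman correlation of rank was -0.93 with midbrain reads and -0.73 with width, and that of rank with the distance to the nearest peak was 0.05 (n = 556 peaks of 1 library, which are not replicates). How far an isolated peak lies from the next one was thus almost unrelated to its rank.

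Strong p300 peaks occur among the isolated ones. The best-ranked isolated peak, of rank 3, lies at chr13:36373670-36376381 (mm9), is also the widest with 2712 bp, and has its nearest listed peak at 605 kb, a heart peak. It held 121 midbrain reads, 60 of them on the plus strand, and 2 heart reads. The highest deposited coverage in it was 37 reads, while the highest coverage outside listed peaks within 200 kb was 7 reads. Its midbrain reads were 13.1 times as dense as 5 to 10 kb away (interval 8.91 to 19.8).

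The next is rank 4, at chr10:38272411-38274729, with 109 midbrain and 2 heart reads and a highest coverage of 31 reads against 5 in the surroundings. The peak chr3:84740240-84742891 (rank 12) held 98 midbrain and 4 heart reads, and chr14:22070994-22073132 (rank 17) held 82 and 6. These last peaks are isolated by a small margin, with nearest listed peaks at 205.8 and 220.7 kb. Chromosome 13 also holds rank 30, at chr13:39972420-39974378, with 72 midbrain reads and 1 heart read and no listed peak within 845 kb, and rank 45, at chr13:26246254-26247751, with 56 midbrain reads and 1 heart read. So 3 of the 10 best-ranked isolated peaks lie on the chromosome with the lowest share of isolated peaks.

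The other 4 of these 10 held 40 to 71 midbrain reads. They are rank 40 at chr1:140395631-140397801, rank 47 at chr11:113300622-113301627, rank 52 at chr4:109957821-109959128 and rank 64 at chr4:71425886-71426806. The peaks of rank 47 and rank 64 held no heart read, and that of rank 52 held 3. The peak of rank 64 has no heart peak within 4670 kb. The ratio of midbrain to heart rpm had a lower bound above 1 at all 10, from 1.20 at rank 52 to 3.64 at rank 3. These peaks were chosen by rank, which follows midbrain reads. The bound lay above 1 at 83.7% of all isolated peaks of rank 1 to 500 and at 65.0% of the remaining peaks of that class. Over all midbrain peaks on chromosomes 1 to 19 the share was 21.6%.

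The 5 most remote peaks all rank below the 10 named above, which were chosen by rank. The largest distance to any listed peak was 4660 kb, for a peak of rank 2037 at chr15:17982289-17983021 with 15 midbrain reads and no heart read. It is followed by chr14:41769423-41770605 (rank 1988, 4302 kb, 19 midbrain and 4 heart reads) and chr7:47646065-47646838 (rank 783, 4081 kb, 20 and 0 reads). Then come chr7:65654066-65654779 (rank 1999, 3898 kb, 14 and 1 reads) and chr6:78195096-78195526 (rank 2136, 3416 kb, 11 and 0 reads). The peak on chromosome 14 is the one of these that does not exceed its surroundings, with a highest coverage of 7 reads in the peak and 7 outside listed peaks. The heart library has 21 reads in its flanks 5 to 10 kb away, where the mean is 5.31 per isolated peak.

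The quartiles of width were 580 and 1003 bp at the remaining peaks, close to those of the isolated ones. After the peak of rank 3 the widest were the peak of rank 12 on chromosome 3 (2652 bp) and a peak of rank 165 at chr12:55016249-55018702 (2454 bp), which held 57 midbrain reads and no heart read. The narrowest outside chromosome 18 were 290, 307 and 328 bp wide, at chr4:17781643-17781932, chr6:33658775-33659081 and chr11:83552822-83553149. They held 8, 11 and 10 midbrain reads. The first of these reached a coverage of 5 reads, no more than the highest unlisted coverage within 200 kb.

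In midbrain reads the main difference from the remaining peaks lay beside the peaks, not in them. Midbrain reads at isolated peaks were 8.80 times as dense as in the flanks 5 to 10 kb away on each side (interval 8.59 to 9.02), against 6.47 times at the remaining peaks (interval 6.39 to 6.54). The flanks held 2.74 midbrain reads per kb at isolated peaks and 3.79 at remaining peaks, a ratio of 0.722 (interval 0.710 to 0.735). The density in the peaks differed by less than its counting error. The enrichment was lowest, 4.65, at remaining peaks with the nearest listed peak at 1 to 10 kb. At 100 to 200 kb it was 8.20 (interval 7.96 to 8.45), with 2.94 flank reads per kb. Isolated peaks at 200 to 500 kb had 8.58 (interval 8.32 to 8.84) and 2.80, so these neighbouring classes overlap in enrichment. An enrichment of midbrain reads in midbrain peaks follows from how peaks are picked. Every one of the 556 isolated peaks had a lower bound above 1 for this enrichment, as did 99.1% of all midbrain peaks on chromosomes 1 to 19, and single values ran from 2.92 to 39.4 with a median of 8.78.

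Flanks of peaks that have neighbours can hold those neighbours. With all listed peaks of both tissues and 1 kb around them left out of the flanks, the enrichment at remaining peaks was 7.30 (interval 7.22 to 7.39), and that at isolated peaks did not move because no listed peak lies in their flanks. Their flanks then held 3.36 midbrain reads per kb, still above the 2.74 at isolated peaks. Flanks of neighbouring peaks overlap and share reads, which makes the intervals of the remaining peaks too narrow. In each class of rank the isolated peaks had the higher enrichment over unmasked flanks, with 10.05 against 7.27 for rank 1 to 500 and 7.66 against 5.79 beyond rank 2000, compared with remaining peaks that overlap no heart peak.

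**Figure D2:**
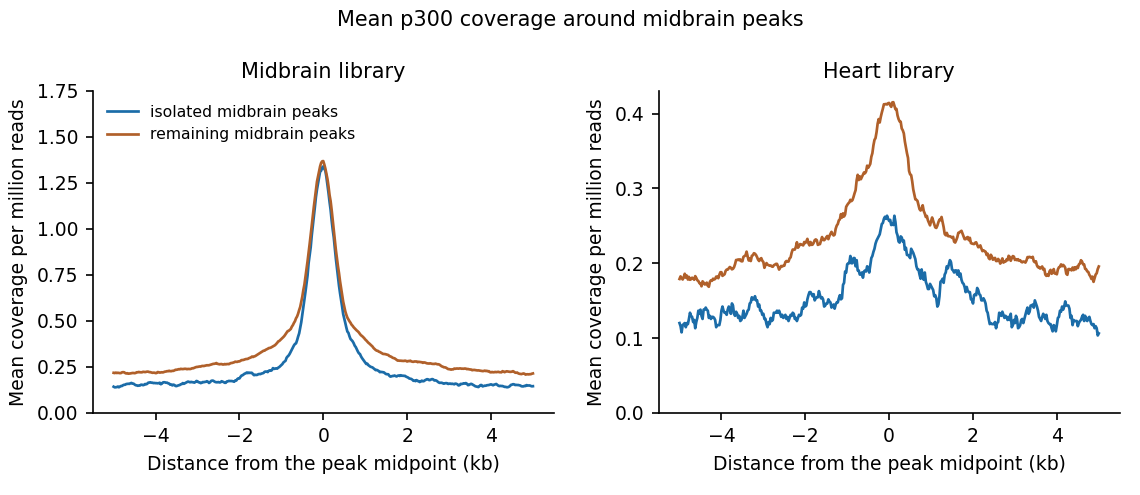
Mean deposited coverage per 1000000 aligned reads (vertical axes, scales differ) by distance from the midpoint of midbrain peaks (horizontal axis, kb) in the midbrain library (left) and the heart library (right), for 556 isolated and 2203 remaining peaks. In the midbrain library the centres are alike at 1.33 and 1.36, and the level 4 to 5 kb away is 0.150 at isolated and 0.218 at remaining peaks.

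The mean profile shows the same. At the midpoint the midbrain coverage was 1.33 per 1000000 reads over isolated peaks and 1.36 over remaining peaks. At 4 to 5 kb it was 0.150 and 0.218. The profile was 725 and 750 bp wide, measured midway between the centre and that level. Within single isolated peaks the highest coverage lay a median of 99.7 bp from the midpoint (quartiles 44 and 176.5 bp). Reads came from both strands at each isolated peak, with 49.5% on the plus strand in all (interval 48.6 to 50.5), and at 16 peaks fewer than 20% of the reads lay on the rarer strand.

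Midbrain read density fell off slowly around isolated peaks. It was set relative to the mean of the library outside listed peaks on chromosomes 1 to 19, a mean that includes stretches where no read can be placed. In the first 0.5 kb outside the edges it was 2.41 (interval 2.32 to 2.49), at 1 to 2 kb it was 1.64 (interval 1.59 to 1.69), and at 5 to 10 kb it was 1.19 (interval 1.17 to 1.21). At 100 to 200 kb it was still 1.057 (interval 1.053 to 1.061). Heart reads at the same places came down to their library mean sooner, with 1.62 in the first 0.5 kb, 1.34 at 1 to 2 kb, 1.044 at 5 to 10 kb and 0.995 at 100 to 200 kb (interval 0.987 to 1.003). Around the remaining peaks the density at 100 to 200 kb was 1.18 in the midbrain library and 1.22 in the heart library.

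**Figure D3:**
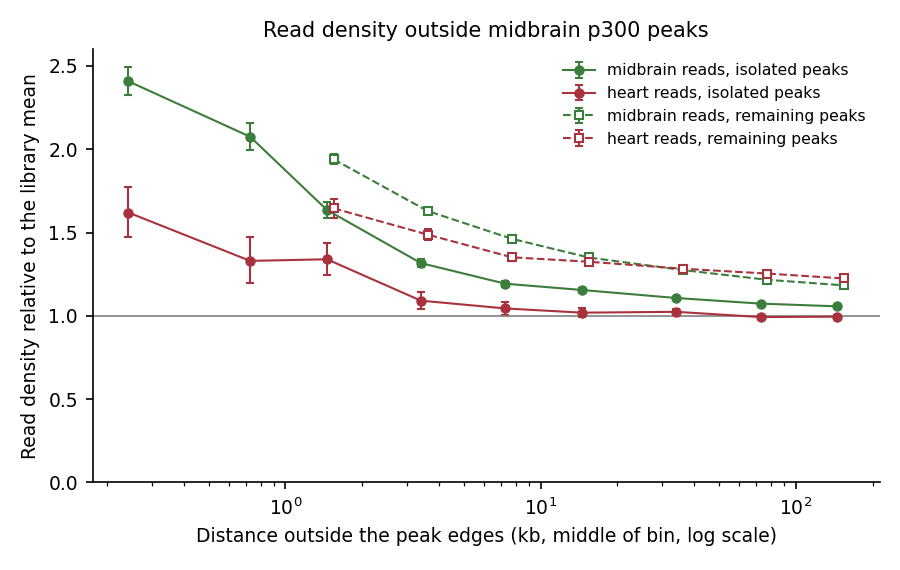
Read density outside the edges of midbrain peaks, relative to the mean of each library outside listed peaks (vertical axis), by distance (horizontal axis, kb, log scale), with listed peaks masked and exact 95% counting intervals as bars. Remaining peaks are drawn from 1 kb on. Around isolated peaks the midbrain density falls from 2.41 to 1.057 and the heart density from 1.62 to 0.995.

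The wider surroundings of isolated peaks held fewer reads in both libraries than those of remaining peaks. Over 10 to 200 kb on each side, with listed peaks masked, the median relative density of midbrain reads was 1.07 around isolated peaks (interval 1.06 to 1.08) and 1.20 around remaining peaks (interval 1.19 to 1.21). For heart reads the medians were 0.983 (interval 0.947 to 1.014) and 1.23 (interval 1.22 to 1.25). Bins of 1 kb without a read of either library made up a median of 10% of the surroundings of isolated peaks and 7.25% of those of remaining peaks. Lower read density thus went with isolation in both tissues, and the part of read placement in it was not tested.

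Most isolated peaks were also the highest point of their surroundings, which follows in part from how peaks are picked and from the rule. The highest deposited midbrain coverage in an isolated peak was a median of 10 reads (quartiles 8 and 11), and the highest coverage outside listed peaks within 200 kb was a median of 7 reads (quartiles 6 and 8). The peak stood above everything unlisted around it at 462 of 556 isolated peaks (83.1%, interval 79.7 to 86.1), against 69.1% of the remaining peaks (interval 67.2 to 71.1). The share was 79.7% (interval 75.2 to 83.8) at remaining peaks with the nearest listed peak at 100 to 200 kb. At isolated peaks at 200 to 500 kb it was 82.2% (interval 77.9 to 86.0), and these intervals overlap. By rank the peak stood above its surroundings at 84 of the 86 isolated peaks of rank 1 to 500 and 82 of 83 in the next class. It did so at 179 of 216 up to rank 2000 and at 117 of 171 beyond rank 2000. Among the last, a count of 8 reads in the peak met 7 in the surroundings at the median, a margin of 1 read.

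**Figure D4:**
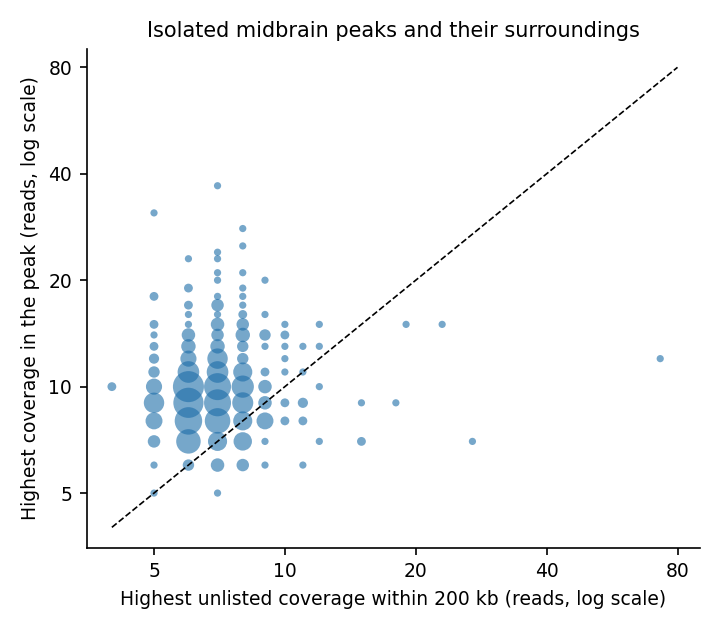
Highest midbrain coverage in each of the 556 isolated peaks (vertical axis, reads, log scale) against the highest midbrain coverage outside listed peaks within 200 kb (horizontal axis, reads, log scale). Larger points stand for more peaks and the dashed line for equal values: 462 peaks lie above it, 38 on it and 56 below it.

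The heart library was then read at the isolated peaks. Of the 556 peaks, 272 held no heart read (48.9%, interval 44.7 to 53.2), 165 held 1, 109 held 2 to 4 and 10 held 5 or more. The depth limits what a 0 can say: a count of 0 allows up to 3 reads, or 2.30 rpm in the heart, and 191 isolated peaks (34.4%) held less than that even in the midbrain library, where the median was 2.73 rpm. Peaks without a heart read were narrower than those with one (medians 651.5 and 808 bp) and ranked lower (medians 1764 and 1314.5). The Spearman correlation of heart reads with width was 0.30 over the 556 peaks of this 1 pair of libraries, and a wider peak has more room for reads.

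Pooled over the isolated peaks the ratio of midbrain to heart rpm was 4.84 (interval 4.43 to 5.31), from means of 3.33 and 0.688 rpm per peak. At the remaining peaks the ratio was 3.15 (interval 3.04 to 3.27), and at the 2048 remaining peaks that overlap no heart peak it was 4.16 (interval 3.98 to 4.34). Remaining peaks with the nearest listed peak within 1 kb had the lowest ratio, 1.36. Those at 100 to 200 kb had 4.49 (interval 4.04 to 5.01), and 42.2% of them held no heart read. Isolated peaks at 200 to 500 kb were alike, with 4.32 (interval 3.89 to 4.81) and 43.7%. Peak by peak, the interval of the ratio lay above 1 at 124 isolated peaks (22.3%, interval 18.9 to 26.0), beside 21.6% of all 2759 midbrain peaks, a share near that background. No isolated peak had an interval below 1, beside 0.471% of all midbrain peaks, and at 432 the interval included 1. The calls followed the read number, with 72 of 86 isolated peaks of rank 1 to 500 called (83.7%, interval 74.2 to 90.8) and 1 of 171 beyond rank 2000. Of the remaining peaks of rank 1 to 500, heart overlaps included, 65.0% were called (interval 60.2 to 69.7). In the class up to rank 1000 the shares were 45.8% of isolated and 35.7% of remaining peaks. Up to rank 2000 they were 6.02% and 7.49%, and the intervals overlap in each of these later classes.

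The lower heart reads at isolated peaks went with the absence of heart peaks within 200 kb. Isolated peaks held 0.897 heart reads each, which was 0.608 times the mean of the remaining peaks (interval 0.552 to 0.668) and 0.810 times that of the remaining peaks without a heart overlap (interval 0.733 to 0.893). The 830 midbrain peaks that have a midbrain neighbour within 200 kb and no heart peak within that distance held 0.928 each, and the ratio to them was 0.967 (interval 0.863 to 1.084). The 411 peaks that lack a midbrain neighbour but lie within 200 kb of a heart peak held 1.53 (interval 1.41 to 1.65), and the 962 with both kinds of neighbour held 1.93 (interval 1.84 to 2.02). Heart reads were thus higher in the groups with a heart peak within 200 kb, whose absence the rule fixes. Peaks that overlap a heart peak fall in these groups, and values without them are not given here. By distance to the nearest listed peak of either tissue, remaining peaks held 3.18 heart reads each within 1 kb. They held 1.37 at 1 to 10 kb, 1.15 at 10 to 50 kb and 1.01 at 100 to 200 kb. Isolated peaks at 200 to 500 kb held 1.01. A midbrain neighbour went with more heart reads in the groups with a heart peak within 200 kb, and with no difference beyond counting error where none was.

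Heart reads were nevertheless denser in isolated midbrain peaks than beside them. In the heart library the density in isolated peaks was 2.08 times that 5 to 10 kb away (interval 1.89 to 2.29), although no heart peak is listed within 200 kb. The rule leaves out places where heart reads form a listed peak. All remaining peaks together, among them those that overlap a heart peak, had a higher value of 2.32 (interval 2.23 to 2.41), or 2.51 with listed peaks masked in their flanks (interval 2.42 to 2.61). The remaining peaks without a heart overlap had 1.79 (interval 1.72 to 1.88), or 1.93 with masked flanks (interval 1.84 to 2.02). With masked flanks the interval of the isolated peaks overlaps that of the peaks without a heart overlap and lies below that of all remaining peaks. The peaks with a midbrain neighbour and no heart peak within 200 kb had 1.88 over unmasked flanks (interval 1.74 to 2.02). With masked flanks they had 1.91 (interval 1.77 to 2.06).

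The weak heart excess over the flanks was present in every class of rank. It was broad in the mean profile over isolated peaks, where heart coverage was 2500 bp wide midway between centre and background. Midbrain coverage over the same peaks was 725 bp wide, and heart coverage over remaining peaks 1350 bp. No control library was at hand to set beside it. The heart enrichment at isolated peaks was 1.94 in the best class, to rank 500 (interval 1.56 to 2.39), and 2.01 in the class up to 1000 (interval 1.58 to 2.55). It was 2.42 up to rank 2000 (interval 2.08 to 2.81) and 1.84 among the peaks that follow (interval 1.48 to 2.26). These intervals overlap, so the heart enrichment did not follow the midbrain rank beyond counting error. In the class up to rank 2000 the remaining peaks without a heart overlap had 1.85 over unmasked flanks (interval 1.71 to 1.99), which does not reach the interval of the isolated peaks. In the other classes the intervals overlap, and beyond rank 2000 the isolated peaks had the lower value, 1.84 against 1.98. The midbrain enrichment did differ between the classes, from 10.05 in the first (interval 9.54 to 10.6) to 7.66 in the last (interval 7.26 to 8.07).

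**Figure D5:**
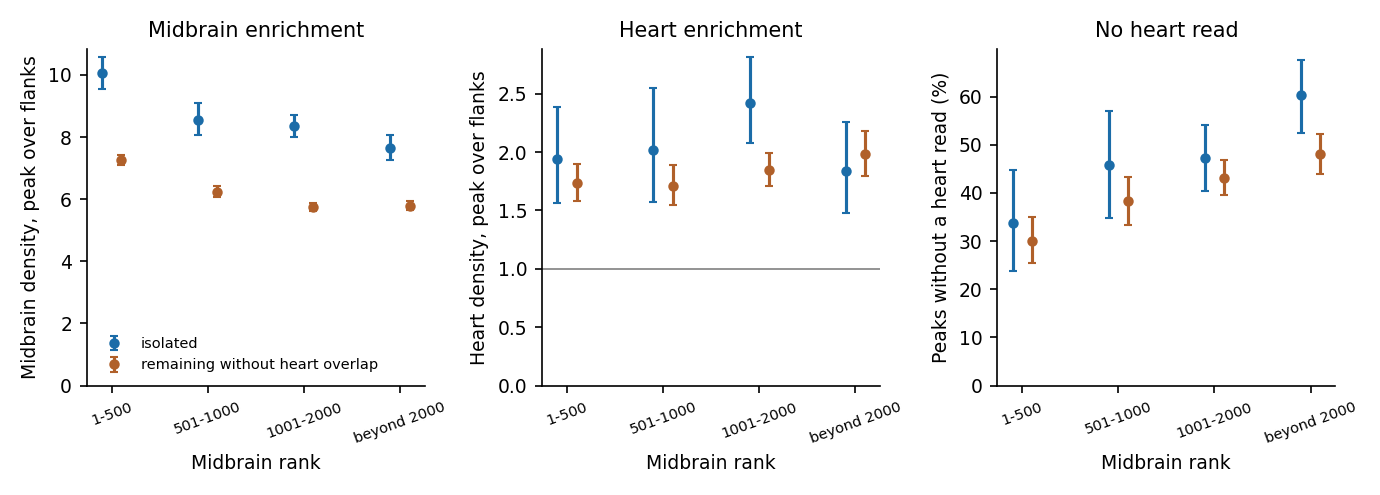
Midbrain enrichment over flanks, heart enrichment over flanks and percentage of peaks without a heart read (vertical axes), by class of midbrain rank (horizontal axes), for isolated peaks and for remaining peaks that overlap no heart peak. Points are pooled values and bars exact 95% counting intervals. The midbrain enrichment of isolated peaks lies at 7.66 to 10.05 and their heart enrichment at 1.84 to 2.42.

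Heart signal at single isolated peaks was rarely large. The heart density exceeded that of the flanks beyond its interval at 43 isolated peaks (7.73%, interval 5.65 to 10.3), beside 10.6% of all midbrain peaks and 6.49% of the remaining peaks without a heart overlap (interval 5.47 to 7.65). The most heart reads lay at chr1:93309812-93312244 (mm9), a peak of 2433 bp and rank 187, with 14 heart reads and 54 midbrain reads. This amounts to 10.7 heart rpm and 9.1998 midbrain rpm. The ratio of midbrain to heart rpm was 0.857 (interval 0.469 to 1.67), with a heart enrichment of 9.59 (interval 3.46 to 30.4). It reached a coverage of 5 heart reads, and its nearest listed heart peak lies 376 kb away. Its scaled reads could thus not be told apart between the libraries, and it stands in the midbrain list alone.

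The other isolated peaks with the most heart reads held 5 or 6 of them. The peak of rank 17 on chromosome 14 is one, where 6 heart reads gave a ratio of 3.04 (interval 1.34 to 8.51). The peak chr15:99250621-99251803 (rank 1128) also held 6, with 23 midbrain reads, and its ratio was 0.852 (interval 0.337 to 2.56). The peak chr1:41446445-41447830 (rank 153) and chr4:80557654-80558705 (rank 662) held 5 heart reads each, with 42 and 25 midbrain reads. At the last 3 the ratio could not be told from 1.

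Among the isolated peaks themselves, the more remote ones held fewer heart reads. Classes of distance were set after the values had been seen. The 366 peaks with the nearest listed peak at 200 to 500 kb held 1.01 heart reads each, the 121 at 500 to 1000 kb held 0.785, and the 69 beyond 1000 kb held 0.507. Midbrain reads per peak were 19.6, 20.8 and 17.2. The ratio of midbrain to heart rpm was accordingly 4.32 (interval 3.89 to 4.81), 5.89 (interval 4.802 to 7.31) and 7.52 (interval 5.38 to 10.9), and 43.7%, 56.2% and 63.8% of the peaks held no heart read. The intervals of the ratio do not overlap between the first and the last class.

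The heart library as a whole was thinner in these places. The median relative density of heart reads over 10 to 200 kb was 1.05, 0.890 and 0.735 in the same classes, while that of midbrain reads was 1.083, 1.06 and 1.01. The heart enrichment over the local flanks was 2.20 (interval 1.96 to 2.46), 1.96 (interval 1.56 to 2.43) and 1.48 (interval 1.02 to 2.11), and the intervals of neighbouring classes overlap. The higher ratio at remote peaks thus stands beside a lower heart level of the whole neighbourhood, whose part in it was not tested. The midbrain enrichment was 8.58, 9.63 and 8.62, and the median widths of 712.5, 742 and 653 bp had overlapping intervals.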

How the data were processed

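p300 ChIP-seq of heart and midbrain, 1 library each, was analysed from the deposited reads, coverage and peak lists, on mm9 per the submitters' processing notes and the file headers. The authors' reads are 36 bp reads lengthened to 300 bp, checked on the positions (all but 24 heart and 48 midbrain lines), with no position and strand repeated. The deposited coverage is a signal in whole reads at 25 bp steps, not scaled to library size. The peak lists give start, end and rank. A heart file header names blat; for the rest, no aligner, peak caller, threshold or control library was given in the sources used here.

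Reads were placed by moving the 5 prime end by 23 bp (heart) and 35 bp (midbrain), a shift set from the strand offsets of 46 and 70 bp found within peaks (search from 46 to 500 bp). The heart offset lies at the lower limit of the search, both lie far below the 300 to 500 bp selected on the gel, and they serve as shifts only. Ratios carry exact conditional binomial intervals, shares Clopper-Pearson intervals and medians order-statistic intervals (95%). The reads carry no molecular identifiers. As no position and strand is repeated, PCR copies that share both count once, and so do distinct molecules that share both. The intervals and limits cover counting error only. With 1 library per tissue there is no p-value. Overlap means at least 1 bp. Scripts used scipy 1.17.1, numpy 2.4.6, pandas 2.3.3 and matplotlib 3.10.9 in Python 3.11.15, and the functions were tested on simulated data.

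The members, the rule and the comparisons were chosen with earlier results of these data known. Positions are named, outside chromosome 18, for the 10 best-ranked isolated peaks, the 5 most remote, the 5 with the most heart reads, the 3 widest, the 3 narrowest, and the 3 on either side of the limit. Genome sequence and gene annotation of mm9 were not used here, so the sequence and gene comparison that had been planned was not made. Alternatives changed the distance, the isolating lists, the joining of peaks, the counting window, the shift, the flanks, the comparison peaks and the depth.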

Additional observations from a re-analysis of the deposited data

Results flagged for a closer look

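At 56 of the 556 isolated peaks (10.1%) a higher midbrain coverage occurred outside every listed peak within 200 kb, in data that the peak comparison does not use. The excess was 1 or 2 reads at 43 of them and their median rank was 2033.5. The unlisted coverage exceeded 20 reads near 3 isolated peaks, which are named because of these values: 73 reads near chr13:77687089-77688330 (mm9), 27 near chr12:76066936-76067328 and 23 near chr3:56259853-56260935, where the peaks reach 12, 7 and 15 reads.

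The rule leaves out chromosome X. By the same distance 17 of its 27 midbrain peaks would be isolated (63.0%, interval 42.4 to 80.6), with 11 to 73 midbrain reads each and a median width of 714 bp, and 8 of them held no heart read. This signal lies above what a count of 0 allows and was not compared with control samples.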

How the results depend on the processing

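Of 100 alternatives, 90 planned and 10 added after the data had been seen, none reversed the direction of a single value. In all, 48 gave a value inside the reported interval (for a count, less than 1.5 times away) and 52 a value outside it. The order of heart enrichment, lower at isolated than at remaining peaks, did turn in some. With isolation from midbrain peaks only it was 2.29 at isolated and 2.28 at remaining peaks. Against remaining peaks without a heart overlap it was 2.08 and 1.79. With isolation at 100 kb the isolated share was 33.2% and 212 isolated peaks were called on the midbrain side. Midbrain enrichment was then 8.55 (isolated) and 6.22 (remaining), the ratio at remaining peaks 2.99, and the surroundings 1.105 (midbrain) and 1.06 (heart). At 500 kb the share was 6.89%, heart reads per peak were 0.485 times those of remaining peaks, the midbrain over heart ratio was 6.33 (isolated) and 3.27 (remaining), midbrain enrichment 9.27 and 6.70, heart enrichment of isolated peaks 1.80, peaks without a heart read 58.9%, peaks called 52, and surroundings 1.046 and 0.818. Isolation from midbrain peaks only gave a share of 35.0%, read ratios to remaining peaks of 0.877 (midbrain) and 0.797 (heart), midbrain over heart ratios of 3.61 and 3.28, midbrain enrichment of 8.51 and 6.19, heart enrichment of 2.29, 44.7% without a heart read, 189 called and a heart surrounding of 1.13. These alternatives choose other members, so part of each shift follows from their construction. Joining midbrain peaks under 1 kb apart gave a share of 23.1% and a midbrain read ratio of 0.875, and heart lists of equal length a share of 22.2%. Weighting by rank class moved the midbrain read ratio to 0.990. Against remaining peaks without a heart overlap the heart read ratio was 0.810, their midbrain over heart ratio 4.16 and their heart enrichment 1.79. Windows of 500 bp on each side of the midpoint gave midbrain over heart ratios of 4.11 and 2.66, midbrain enrichments of 6.98 and 5.29 and 41.5% without a heart read. A shift of 150 bp gave midbrain enrichments of 8.003 and 5.91 and a ratio at remaining peaks of 2.92. Flanks at 2 to 5 kb gave midbrain enrichments of 7.97 and 5.49 and a heart enrichment at remaining peaks of 2.06, and flanks at 10 to 20 kb gave 9.09 and 7.11. With listed peaks masked in the flanks, remaining peaks had 7.30 (midbrain) and 2.51 (heart). After thinning the midbrain library to the depth of the heart library, 80 isolated peaks were called. For the other shifts the cause was not tested.

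The calls per peak are limited by the heart depth, and the coverage profile and the highest unlisted coverage had no alternative. No paired analysis was possible because each tissue is 1 library.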
